A study of Mus musculus with 12 samples.

Results

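The genes that remove and bind N6-methyladenosine (m6A) in RNA carry m6A peaks of their own, and these peaks were described in lung of asthmatic and control mice. The group comprised 10 genes, namely the erasers Fto and Alkbh5, the YTH-domain readers Ythdf1, Ythdf2, Ythdf3, Ythdc1 and Ythdc2, the readers Igf2bp2 and Igf2bp3, and the nuclear reader Hnrnpa2b1. A peak was taken when it was assigned to one of these genes by name or when it was called on one of them. This gave 18 of 27292 peaks in the list of the OVA group and 17 of 26102 in that of the PBS group.

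Lung RNA of 3 mice per group was profiled by MeRIP-seq, in which fragments captured by an antibody to m6A (IP) are sequenced beside the same RNA without that capture (input). Female BALB/c mice aged 6 to 8 weeks received ovalbumin with aluminum hydroxide on days 0 and 7, then breathed a 3% ovalbumin aerosol for 30 min daily from day 14 through day 20, which models acute allergic asthma (OVA group). Control animals of the same strain, sex and age were given PBS at both stages (PBS group), and tissue was collected on day 21. The 12 libraries entered 2 peak lists, 1 per group, and neither list holds values of single mice, so no value could be set against the spread between animals and no test was run.

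m6A is placed on RNA in the nucleus by a methyltransferase complex, taken off by demethylases called erasers, and bound by proteins called readers that steer splicing, export, translation and decay of the marked RNA. Transcripts of lung epithelial, vascular and immune cells all carry the mark. Because the proteins of this pathway are encoded by mRNAs, these can be methylated too.

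Of the 10 genes, 8 had a peak in OVA and 7 in PBS, and 7 had a peak in both. Igf2bp2 had a peak in the OVA list alone, while Ythdc2 and Igf2bp3 carried no peak in either list analysed here. Over all genes, 14126 identifiers had a peak in OVA and 13569 in PBS. The share of all genes with a peak, or with one in 1 list alone, was not computed. Whether the counts for these 10 genes are unusual was therefore not tested. With peaks of protein-coding transcripts alone, 6 genes had a peak in each list, since Igf2bp2 and Hnrnpa2b1 had none, and Ythdc1 kept 1 peak per list. No peak of either list lay within the RefSeq positions of Ythdc2 and Igf2bp3. The lists hold no expression values, so low RNA and low methylation cannot be told apart where a peak is missing. In whole lung, fewer cells of a type and less RNA per cell cannot be told apart.

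Peaks were called shared when their exonic blocks, the exon pieces that make up a peak, overlapped by at least 1 bp. Without an overlapping PBS peak were 2 of the 18 OVA peaks (11.1%), compared with 19.4% of all OVA peaks. Without an overlapping OVA peak was 1 of the 17 PBS peaks (5.88%), compared with 14.5% of all PBS peaks. With so few peaks, the number lacking an overlap did not set these genes apart from the lists. The blocks covered 11025 bp in the OVA list and 11083 bp in the PBS list, and 10603 bp were common to both. This was 96.2% of OVA bases and 95.7% of PBS bases, beside 82.9% and 88.4% over all peaks. Most of these bases belong to the long peaks of Ythdf1, Ythdf2, Ythdf3 and Ythdc1, so the shares mainly describe those peaks. The remaining peaks were not compared with the lists on their own. Of the 16 shared OVA peaks, 6 had the same start and end in the PBS list (37.5%, against 12.7% of all 22006 shared peaks). Among these 6 are the Ythdc1 peaks beginning at 86816959 and 86816960, which overlap each other, so this too is a description over few peaks.

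Fold enrichment compares IP with input within a peak as a ratio, and its median was 3.66 for the OVA and 4.01 for the PBS group. Over all peaks the medians were 5.59 and 5.44, and 12 of the 18 and 11 of the 17 lay below them. With peaks of protein-coding transcripts alone, the order turned in PBS, with a median of 6.47 for 10 peaks of these genes and 5.82 over all such peaks. It did not turn in OVA, with 3.69 for 9 peaks and 5.99. The 2 sets differ in the most upstream Alkbh5 peak, which was kept in PBS with a fold enrichment of 8.14. In OVA, where it had 21, it was assigned to a processed transcript and left out. The contrast between the lists thus depends on this annotation. The values ranged from 1.14 to 21.3 in the OVA list and from 1.66 to 25.8 in the PBS list, so the group held both weakly and strongly enriched peaks. Since each list has its own scale, fold enrichments were compared between lists by their percentile within the list, a mid-rank in which peaks of equal value share their rank. A shift of at least 20 percentile points was counted as a change of rank.

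Such a shift was found for 3 of the 16 shared peaks. Higher in OVA were 2 of 16, both on Alkbh5, while 9.12% of all shared peaks were higher by this measure. Lower in OVA was 1 of 16, on Ythdc1, while 8.56% of all shared peaks were lower. With peaks of protein-coding transcripts alone, 2 shared peaks shifted. These were the Ythdc1 peak, by -30.5 points, and the Alkbh5 peak beginning at 60538708, by 21.6 points. With so few peaks, these counts do not set the genes apart from the lists as a whole. The median shift was 3.29 points toward OVA in these genes and 1.4 points over all shared peaks.

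**Figure D1:**
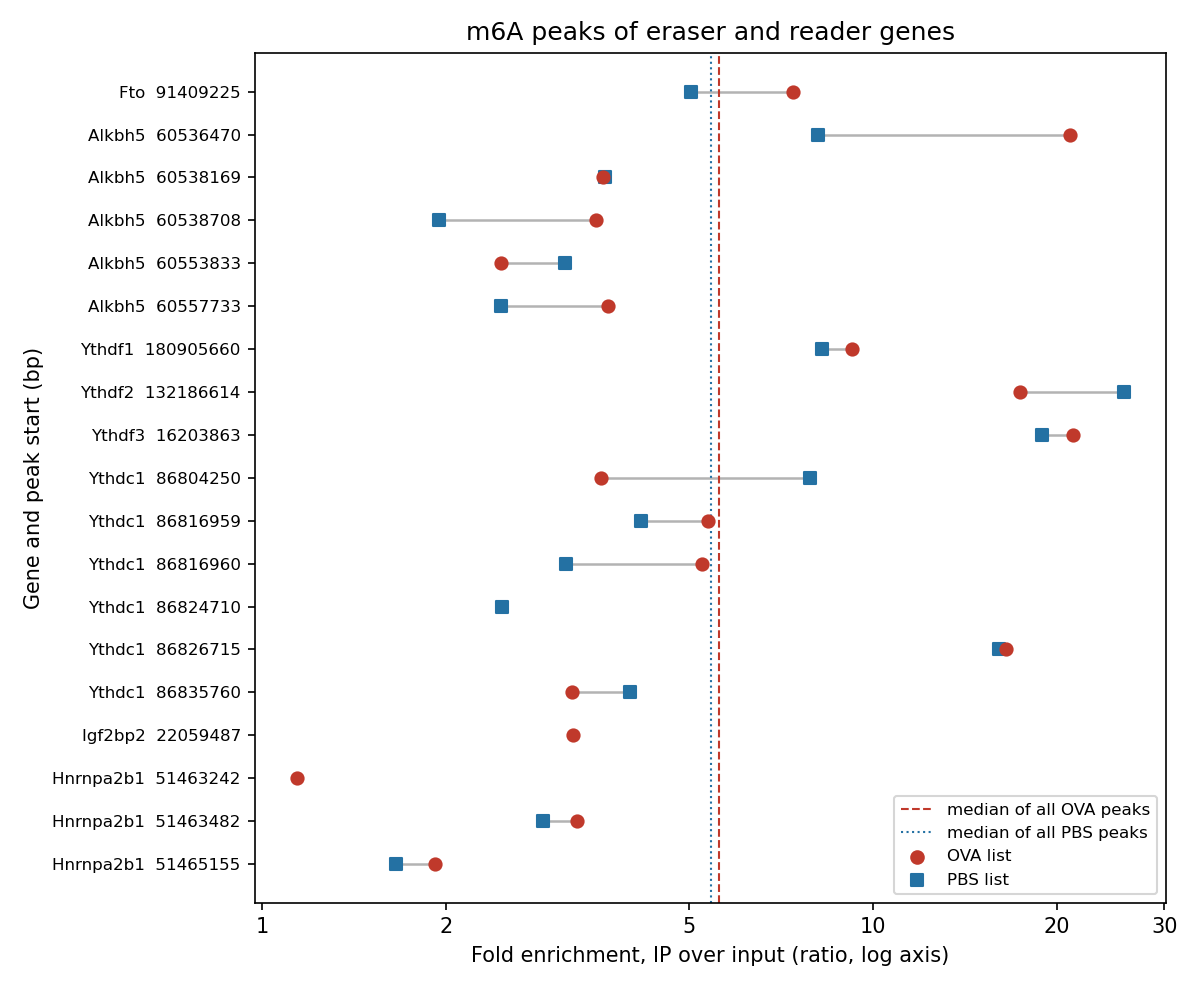
Fold enrichment of IP over input (ratio, log axis) for each peak of the eraser and reader genes, named by gene and peak start (the OVA start for shared peaks); circles are the OVA list, squares the PBS list, grey lines join shared peaks and vertical lines mark the medians of all peaks. The longest grey lines belong to the most upstream peak of Alkbh5 (21 and 8.14) and of Ythdc1 (3.59 and 7.9).

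Fto encodes the founding m6A demethylase, which also acts on the methylated adenosine beside the mRNA cap. Its single peak lay in an exon on chromosome 8, at 91409225 to 91409825 in the OVA list, with a fold enrichment of 7.4 (percentile 59.7). In the PBS list the peak began upstream, at 91401857, through an added block of 27 bp, and had a fold enrichment of 5.04 (percentile 47.1). The log10 p of the peak was -296 in OVA and -271 in PBS. The main block of the Fto peak thus lay at about the same internal place in both groups, far from the gene ends. A distance of 258608 bp separated the peak from the 3' end of the RefSeq gene. A further OVA peak inside the gene's position, at 91633672 to 91633792, was assigned to and called on Gm45293 and was not counted for Fto.

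Alkbh5, the other known m6A demethylase, had 5 peaks in each list, a number reached by 4.58% of gene identifiers with a peak in OVA and 4.7% in PBS. All lay on chromosome 11 and each overlapped a peak of the other list. The most upstream began at 60536470, which is 1213 bp before the RefSeq gene start, and ended at 60536620 in the OVA list. There its fold enrichment was 21 (percentile 92.8). In the PBS list this peak had a second block of 43 bp inside the gene, ended at 60538020, and had a fold enrichment of 8.14 (percentile 64.3). The values therefore belong to peaks of different shape, and both had weak support, with a log10 p of -6.2 in OVA and -3.88 in PBS. The authors' annotation placed it in an exon of a processed transcript in the OVA list and in the 5' UTR of a protein-coding transcript in the PBS list.

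The next Alkbh5 peak, in the 5' UTR at 60538169 to 60538469, was alike in both groups and had a ratio of 3.62 (percentile 33.7) in OVA and 3.64 (percentile 34.6) in PBS. An exonic peak beginning at 60538708 had a fold enrichment of 3.52 (percentile 32.6) in OVA and 1.95 (percentile 9.79) in PBS. That difference of 22.8 points was just past the limit of 20, and the PBS peak was lost when a fold enrichment of at least 2 was required. In the 3' UTR as annotated by the authors, the peak at 60553833 to 60554531 had a fold enrichment of 2.46 in OVA, and its PBS counterpart had 3.13. The most downstream peak, at 60557733 to 60558033, had the same coordinates in both lists and a fold enrichment of 3.69 in OVA and 2.46 in PBS. Along Alkbh5, then, the differences between the lists did not all have the same direction. Percentiles were higher in OVA for 3 peaks, lower for that at 60553833 and nearly equal for that at 60538169.

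The 3 YTHDF readers are cytoplasmic proteins. Each had a single, very long peak. YTHDF1 is best known for promoting translation of marked mRNAs. On chromosome 2, its peak began at 180905660 in both lists and was split over blocks of 8, 1521 and 25 bp in the OVA list and of 8 and 1486 bp in the PBS list. The fold enrichment was 9.23 (percentile 67.3) in OVA and 8.25 (percentile 64.7) in PBS. Nearly all of the Ythdf1 peak was thus a single exonic block.

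YTHDF2 recruits the deadenylation machinery to marked mRNAs and speeds their decay. Its peak, on chromosome 4 from 132186614, had blocks of 333 and 1580 bp in OVA and of 333, 1584 and 26 bp in PBS. The fold enrichment was 17.4 (percentile 88.5) in OVA and 25.8 (percentile 96.9) in PBS, the highest PBS value in these genes. YTHDF3 works together with both relatives. Its peak, at 16203863 to 16214491 on chromosome 3, had identical coordinates in the lists, with blocks of 1561 and 537 bp. The fold enrichment was 21.3 (percentile 93.1) in OVA and 18.9 (percentile 92.1) in PBS, and by p the peak ranked 152 in OVA and 175 in PBS. None of the YTHDF peaks shifted by 20 points.

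The summed blocks of these peaks measured 1554 bp for Ythdf1, 1913 bp for Ythdf2 and 2098 bp for Ythdf3 in the OVA list. Blocks summing to at least 1554 bp were found in 2.83% of all OVA peaks. The PBS values were 1494, 1943 and 2098 bp, and 3.09% of all PBS peaks reached 1494 bp. The YTHDF genes thus shared long peaks at about the same positions in both groups. The p of a peak depends on its length and on the reads behind it, and the lists give no read counts.

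Ythdc1 encodes the nuclear reader, which takes part in splicing and export. It had 5 peaks in OVA and 6 in PBS, all on chromosome 5. The main peak, at 86826715 to 86829655, was long as well, with blocks of 96 and 1701 bp and the same coordinates in OVA and PBS. Its fold enrichment was 16.5 (percentile 87.3) in OVA and 16.1 (percentile 88.2) in PBS. The strongest Ythdc1 peak was therefore nearly the same in both groups. It was annotated by the authors as 3' UTR of a processed transcript and ended 7004 bp before the 3' end of the RefSeq gene.

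At the 5' end of Ythdc1, a peak at 86804250 to 86804460 had a fold enrichment of 3.59 (percentile 33.4) in OVA. In PBS it spanned 86804220 to 86804490 with a fold enrichment of 7.9 (percentile 63.3), a difference of -29.9 points. This was the shared peak with the widest shift in these genes, and its support was weak in both lists, with a log10 p of -4.37 in OVA and -7.65 in PBS. A peak inside the gene at 86816960 to 86817320 had a fold enrichment of 5.26 in OVA and 3.15 in PBS, a difference of 18.9 points, just under the limit, which became 21.5 points among peaks with a fold enrichment of at least 2. The same place held a shorter peak, at 86816959 to 86817106, that was called on Gm43055 but assigned to Ythdc1. With values of 5.38 in OVA and 4.18 in PBS, it covers bases already counted in the longer peak.

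Of the remaining Ythdc1 peaks, that at 86824710 to 86824800 was found in the PBS list alone, with a fold enrichment of 2.47 (percentile 19) and a log10 p of -2.33, the weakest of the 17 PBS peaks. Near the 3' end, the OVA peak at 86835760 to 86836090 had a fold enrichment of 3.22 and its PBS counterpart, which carried an added block of 13 bp, had 4.01. Along Ythdc1, then, the rank was higher in OVA for the internal peaks around 86816960, lower at both ends, and nearly equal at the main peak.

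**Figure D2:**
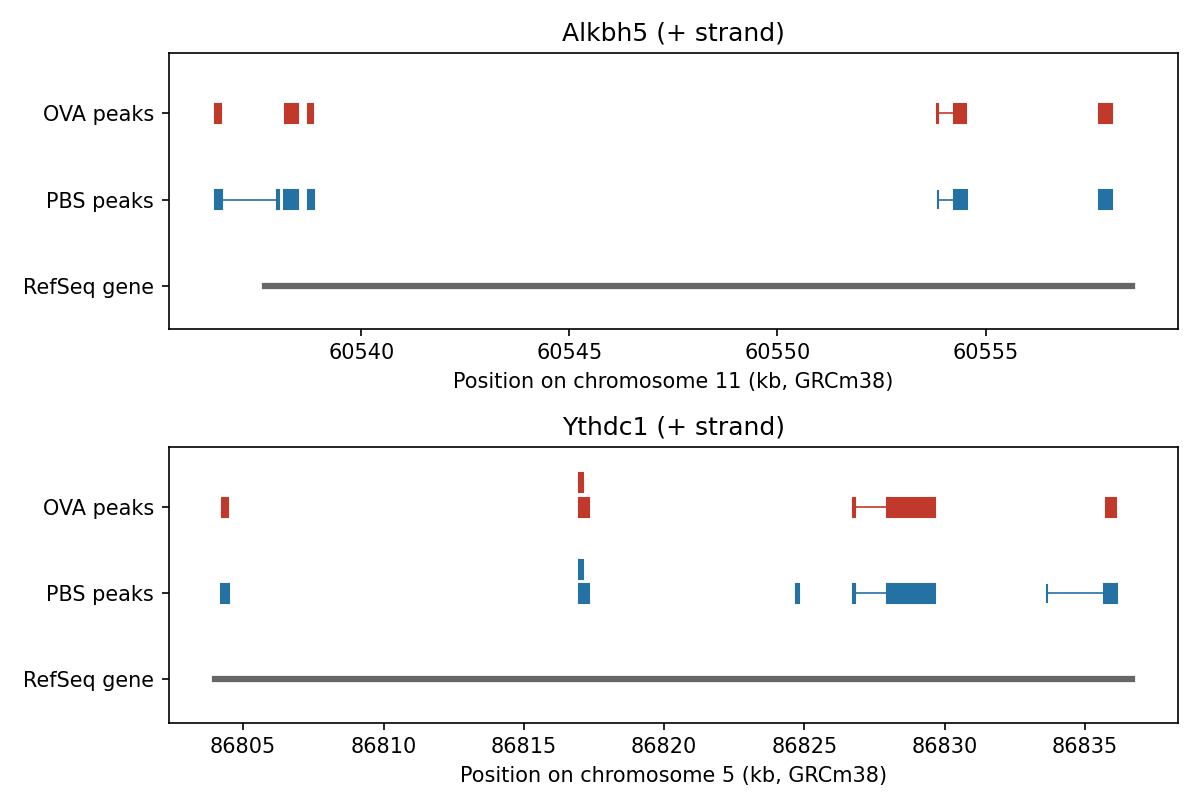
Positions (kb, GRCm38) of the peaks of Alkbh5 on chromosome 11 and Ythdc1 on chromosome 5; boxes are exonic blocks, thin lines join the blocks of a peak, the raised boxes are the peaks called on Gm43055, and the grey bar is the RefSeq gene. Alkbh5 has 5 peaks in each list, and Ythdc1 has 5 in OVA and 6 in PBS.

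The Ythdc1 peak at the 5' end was the sole peak of these genes that reached into a RefSeq promoter window. Such a window is a stretch of 300 bases, of which 250 lie before a transcript start. Windows were available for 8 of the 10 genes, and those of Ythdf3 and Ythdc2 were missing. The peak covered 66 bases of the window in OVA and 96 in PBS. The 30 bases around the transcript start, which lie under the peak of both lists, are shown because the widest shift was measured there. They are from chr5:86804251-86804280, plus strand, RefSeq build GRCm38.p6, with the bases from the start of the RefSeq transcript at 86804266 onward in capitals. The RefSeq gene begins further upstream, at 86803980, so the bases in lower case lie inside the gene as well.
Ythdc1: gcaggctccattttaGCGCCGCCCGGCGTC

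In mammalian mRNA, m6A is often found within the letters GGAC, the commonest form of the consensus known as DRACH. On the strand of the gene, GGAC was absent from the part of the window under the Ythdc1 peak in both lists. Among all peaks that could be read in the same way, 24.7% of 1084 OVA peaks and 27.9% of 994 PBS peaks held it. DRACH was absent from these bases of Ythdc1 too, and was held by 50% and 52.2% of all peaks read. The whole Ythdc1 window had 2 copies of GGAC on the strand of the gene and 3 on the other strand. Of all 32851 windows, 65.6% had GGAC on the strand of the gene and 87.7% on either strand. An absent match says only that these letters are not in the bases read, and the rest of the peak was not read.

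Hnrnpa2b1 encodes an RNA-binding protein of the nucleus that has been proposed as a reader, with a role in microRNA processing and splicing. It had 3 peaks in OVA and 2 in PBS, on chromosome 6, all assigned to retained-intron transcripts. The peak at 51463482 to 51464797, in 4 blocks, was identical in position and had a fold enrichment of 3.28 (percentile 29.6) in OVA and 2.88 (percentile 25.3) in PBS. The peak from 51465155 had 1.92 (percentile 8.78) in OVA and 1.66 (percentile 4.81) in PBS. Found in the OVA list alone was a peak of 61 bp at 51463242 to 51463303, with a fold enrichment of 1.14, equal to the lowest value of the whole list, and a log10 p of -4.45. With a fold enrichment of at least 2 required, 1 Hnrnpa2b1 peak was left in each list.

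IGF2BP proteins bind marked mRNAs and keep them stable. The Igf2bp2 peak of the OVA list lay at 22059487 to 22059728 on chromosome 16, in the 3' UTR of a retained-intron transcript as annotated, and ended 478 bp before the 3' end of the RefSeq gene, which is on the minus strand. Its fold enrichment was 3.23 (percentile 29.1) and its log10 p -5.47. No PBS peak overlapped the position of this gene. The related Igf2bp3 and the helicase Ythdc2, known for its role in meiosis, had no peak.

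By the authors' annotation, 8 of 18 OVA peaks lay in the 3' UTR (44.4%, 95% Wilson interval 24.6% to 66.3%), as did 6 of 17 PBS peaks (35.3%, 17.3% to 58.7%). The share over all peaks was 52.7% in each list, inside both intervals, which cover counting error only. They also treat peaks as independent, although Alkbh5 and Ythdc1 supplied several peaks each. Exons held 8 peaks in each list (44.4% in OVA and 47.1% in PBS), beside 35.7% and 35.9% of all peaks. The 5' UTR held 2 in OVA (11.1%) and 3 in PBS (17.6%), beside 11.6% and 11.4% of all peaks. More than 1 block was found in 7 of 18 peaks in OVA (38.9%) and in 10 of 17 in PBS (58.8%), beside 24.1% and 21.4% of all peaks, a description over few peaks. A peak has 1 region label even where its blocks lie far apart, as in Ythdf2 and Ythdf3, so the label may not hold for every block. Protein-coding transcripts were assigned to 9 OVA peaks (50%) and 10 PBS peaks (58.8%), beside 41.8% and 42.5% of all peaks, again over few peaks.

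Among 9 m6A writer genes, 8 had a peak in OVA and 7 in PBS, with 22 and 21 peaks. Their median fold enrichment was 9.19 in OVA and 8.82 in PBS, beside 3.66 and 4.01 for the eraser and reader genes. Mettl14, which encodes the RNA-binding partner of the catalytic subunit, had a peak in the OVA list alone, with a fold enrichment of 2.34. Mettl3, the catalytic subunit, had none in either list. The peak of Cbll1, a partner of the complex, was assigned to Gm29542 in both lists. In each list, 1 Wtap peak was assigned to Acat2 and 2 Virma peaks to Rad54b.

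Markers of cell types were counted by their peaks, which need the RNA to be present and methylated, whether assigned to the gene or called on it. Of 9 markers of lung epithelium, 8 had a peak in each list, and all 4 endothelial markers did, so RNA of both lung cell types was represented in each list. Sftpc, a defining marker of alveolar type II cells, had no peak. Of 3 smooth muscle markers, 2 had a peak in OVA and 1 in PBS, and of 8 blood and immune cell markers, 3 had one in each list. The peaks of Cdh5 and Myh11 were called on these genes, but all were assigned to Gm45663 and Marf1. Tagln had its peak in the OVA list alone, with a fold enrichment of 1.27, and Acta2 had none in either. The eosinophil genes Epx and Prg2 had no peak in either list, nor had Siglecf and Adgre1. Among the 3 liver markers, Apob had 13 peaks in the OVA list, with fold enrichments of 2.77 to 18.5, and none in the PBS list. A peak called on Cyp2e1 but assigned to Gm29799 was found in the PBS list, with a fold enrichment of 3.56, and Alb had none in either. The lists give no levels of these RNAs in single samples, and the part of cell or tissue makeup in the peaks found in 1 list alone was not tested.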

How the data were processed

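Lung RNA of 3 OVA and 3 PBS mice gave 6 libraries per group, 3 IP and 3 input. According to the study's methods and the submitters' processing notes, reads were mapped with HISAT2, peaks were called with exomePeak and annotated with ChIPseeker. The authors deposited 1 peak list per group, and how the replicates were combined is not given in the sources used here. The deposited fold enrichment is the authors' ratio of IP over input. Each deposited score is a log10 p or log10 FDR from the peak caller of the authors. The deposited widths, block numbers and distances are in bp or counts. The lists give no read counts, so the depth behind a peak is unknown.

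Coordinates are those of the lists. Of the OVA peaks called on a gene with a RefSeq position on GRCm38.p6, 94.6% overlapped it, and 94.6% of the PBS peaks did. Identifiers of called genes had a symbol for 27259 OVA and 26070 PBS peaks. Block ends may be off by 1 bp, since in peaks of 1 block the block size is shorter than the width by that amount. Peaks were matched by block overlap of at least 1 bp, taking the partner with the largest overlap. Percentiles were computed within each list. All peaks of the 10 genes are named. Of the other lists of genes, those with a peak in 1 list alone or, where there were none, the highest and lowest fold enrichment are named, and markers of cell types are named where they had a peak in 1 list alone or in neither, apart from an item that is not reported here. The members and lists were chosen with earlier results of these data known. The search for letters could be read only where a peak reached into a RefSeq promoter window. Expression was not analysed here. Python 3.11.15, numpy 2.4.6, pandas 2.3.3, scipy 1.17.1 and matplotlib 3.10.9 were used, and the overlap code was tested on simulated data.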

Additional observations from a re-analysis of the deposited data

How the results depend on the processing

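The alternatives were assignment by name alone or by called gene alone, an FDR under 0.05, a fold enrichment of at least 2, peaks of protein-coding transcripts alone, and other rules for shared peaks. With protein-coding transcripts alone, the peaks numbered 9 in OVA and 10 in PBS, 0 OVA peaks lacked a PBS peak, and the median fold enrichment in PBS was 6.47, above the 5.82 of all such PBS peaks. Under this setting the PBS peak without an OVA peak was the most upstream of Alkbh5, not that of Ythdc1. The OVA counterpart of this Alkbh5 peak was assigned to a processed transcript, so it was left out, also from the OVA median. With identical coordinates required, 12 OVA and 11 PBS peaks had no counterpart, and 0 of the shared peaks shifted by 20 points. The 3 peaks with such a shift in the main result differ in start or end between the lists, so this rule leaves them unmatched. A fold enrichment of at least 2 gave the main counts of 2 OVA peaks without a PBS peak and 3 shifted peaks, but with other peaks: the Alkbh5 peak at 60538708 lost its PBS partner and took the place of that of Hnrnpa2b1, and the Ythdc1 peak at 86816960 shifted by 21.5 points. The setting of protein-coding transcripts keeps fewer peaks, while that of identical coordinates changes the matching alone. No paired analysis was possible because each group has 1 list without values of single mice. For the same reason, leaving out replicates could not be run.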

Other observations

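Of 7 other proposed readers, 6 had a peak in each list, with 15 peaks in OVA and 12 in PBS and a median fold enrichment of 2.75 and 2.34. Prrc2a had the highest value in both lists, 59 in OVA and 39.7 in PBS. It also had the lowest OVA value, 1.33, and Hnrnpc the lowest PBS value, 1.43. That Hnrnpc peak was assigned to Gm49258, and all peaks called on Rbmx and Elavl1 were assigned to Snord61 and Timm44. Of 7 further AlkB family genes, which encode relatives of ALKBH5, 4 had a peak in OVA and 6 in PBS. Alkbh3, with a fold enrichment of 2.35, and Alkbh7, with 4.57, had a peak in the PBS list alone.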
